A study of Mus musculus with 8 samples.

Results

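Muc1, Muc4, Muc5ac, Muc5b, Muc6, Muc13, Muc20 and Mucl3 are the gastric and membrane mucin genes described here. They were chosen by name, as 8 mucin genes that mark stomach mucus or sit on the surface of epithelial cells. Earlier results of these data were known when the genes were chosen. Mucl3 stands in the files under its older symbol Dpcr1. The arrays carry 10 probes for these genes, out of 55681 probes in all, and all 8 genes are among the 23282 genes that could be tested.

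Mucins are large proteins whose repeats are densely covered with sugars linked to serine and threonine. The gel-forming mucins are secreted and build the mucus layer: Muc5ac comes from surface mucous cells of the stomach, Muc6 from gastric glands, Muc5b mainly from airway and salivary glands, and Muc2 from goblet cells of the intestine. The membrane mucins are anchored in the apical membrane, where Muc13 is the usual intestinal form and Muc1 and Muc4 can also take part in signalling by growth factor receptors.

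The study measured total RNA of whole small intestine from mouse embryos at stage E18.5 on 8 single-colour Agilent arrays. Control samples were wild type (Rfx6+/+, n = 4) and the other samples were homozygous for deletion of Rfx6 (Rfx6-/-, called Rfx6 KO here, n = 4). Rfx6 encodes a transcription factor of endocrine lineages, and the study asked which genes depend on it. The null allele came from a floxed allele recombined by CMV-Cre, a broadly acting deleter, so the loss was not restricted to the gut or to 1 cell type. Neither the sex nor the litter of the embryos is given, and the labels do not say whether a sample is 1 embryo, so p-values measure the spread between these samples. No further treatment is named for either group.

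Levels are log2 of the processed signal relative to the 75th percentile of the array, so that 0 is the level of that percentile, and they were not compared between probes. Differences are Rfx6 KO minus control. The single Rfx6 probe did not separate the groups, with -2.93, -2.91, -2.98 and -3.74 on the control arrays and -2.32, -3.37, -3.11 and -2.25 on the Rfx6 KO arrays (difference 0.38, SE 0.29, limma adjusted p = 0.503). It therefore does not check the labels, and the group names are those of the labels throughout. The marker genes of intestinal epithelium, 10 of 10, were well above background on every array. The number of arrays limits the precision.

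The mucin transcripts did not move as a block. Muc5b, Mucl3, Muc1 and Muc4 rose in Rfx6 KO intestine, Muc13 and Muc20 differed by small amounts that did not pass the test, and Muc5ac and Muc6 overlapped between the groups. In all, 4 of the 8 genes passed as higher and 0 as lower (limma, adjusted p under 0.05), against 2.33% higher and 2.59% lower among all genes tested. At an unadjusted p under 0.05, 6 were higher and 1, Muc13, was lower. Among the 5 genes above background on all control arrays, 4 were higher and 1 lower at that threshold. For these and the later counts at an unadjusted p no share over all genes is given, so they are descriptions only. In RNA of a whole tissue, more cells of a type and more RNA per cell cannot be told apart. Muc1, Muc6 and Mucl3 entered the test through the Rfx6 KO arrays alone, so their presence among the tested genes already depends on a level there; of the 5 genes above background on all control arrays, 2 passed, Muc4 and Muc5b.

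**Figure D1:**
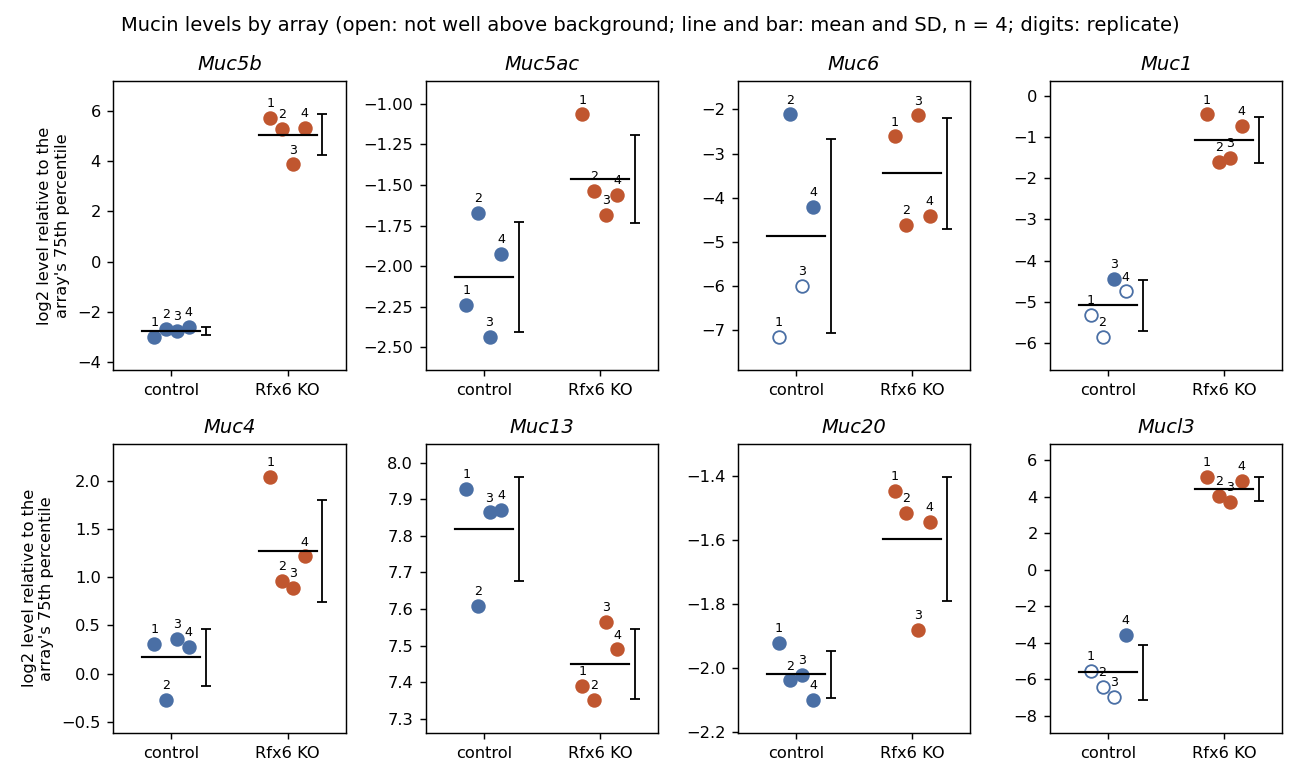
Level of each mucin on each array (vertical axis, log2 relative to the 75th percentile of the array; the scales differ between panels) for the control and Rfx6 KO groups, with replicate numbers, mean and SD (n = 4). Open points are not well above background. The groups lie far apart for Muc5b, Muc1 and Mucl3 and overlap for Muc5ac and Muc6.

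The probes decide what was measured, and the 5 probes of the genes that rose are shown by their last 30 bases, 5′ to 3′, with a polyadenylation signal (AATAAA) in capitals where the stretch holds one. The files place them on mm9 but give no exon or UTR annotation.
Muc5b: ccctaagctgcAATAAAccctggcactgtg
Mucl3: ttctttacctggtgcgcaagacgaggagcg
Muc1: cagtaacagttcaccccagttgtctgttgg
Muc4, probe nearer the transcript end: tcctacacagatatatcaggaaggaggata
Muc4, upstream probe: ccgtggcttgcttctgcagtaaggaggagc
The Muc5b probe (chr7:149058931-149058990, plus strand) starts at base 14903 of its transcript and contains the polyadenylation signal. The Mucl3 probe lies at chr17:35772766-35772825 on the minus strand, and the Muc1 probe at chr3:89034965-89035024 on the plus strand. The Muc4 probes start at bases 11077 (chr16:32782278-32782337) and 9726 (chr16:32774896-32774955), both on the plus strand. No probe of another gene on the array shared a run of 15 bases with the Muc5b, Mucl3 or Muc4 probes, and 1 probe without a gene name did so with the Muc1 probe.

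Muc5b gave the clearest signal of the gel-forming mucins. Its processed signal was 82.4, 109, 94.6 and 114 on the control arrays and 39738, 26905, 10510 and 25555 on the Rfx6 KO arrays, and it was well above background on all 8. As levels these were -3.00, -2.68, -2.77 and -2.62 against 5.75, 5.29, 3.88 and 5.33. Every Rfx6 KO array was far above every control array, and replicate 3 was the lowest of the Rfx6 KO arrays. The mean was -2.77 ± 0.17 (SD, n = 4) in controls and 5.06 ± 0.81 (SD, n = 4) in Rfx6 KO, a difference of 7.83 (SE 0.35; limma adjusted p = 6.09e-06). This is 227-fold, with a 95% interval from 131 to 392. The difference was 7.07 with normexp background correction and 7.15 in the authors' normalized values, and the gene was called with both. Within the slide rows it was 7.84 in row 1 and 8.43 in row 2.

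Muc5ac, the mucin that typifies the gastric surface, lay at -2.24, -1.67, -2.44 and -1.93 in controls and at -1.07, -1.54, -1.68 and -1.56 in Rfx6 KO. Rfx6 KO replicates 1, 2 and 4 were above all controls, while replicate 3 fell just under control replicate 2. Means of -2.07 ± 0.34 and -1.46 ± 0.27 (SD, n = 4 each) gave a difference of 0.61 (SE 0.19), with a fold interval from 1.13 to 2.05, which did not pass over all genes (limma adjusted p = 0.113; exact permutation p = 0.0571, two-sided). With array weights it passed (limma adjusted p = 0.0316). The Muc5ac probe lies at chr7:149004793-149004852, upstream of the Muc5b probe on the same strand. The changes of these neighbouring gel-forming mucins were unequal: that of Muc5b exceeded that of Muc5ac by 7.22 log2 units (exact permutation p = 0.0286, the smallest that 4 against 4 arrays can give, and 0.0381 adjusted over 4 such pairs). With the Muc5b groups so far apart, this p was fixed in advance and adds nothing to the Muc5b call.

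Muc6 was close to background. It was well above background on control replicates 2 and 4 and on all Rfx6 KO arrays, with levels of -7.15, -2.11, -5.99 and -4.22 against -2.61, -4.61, -2.14 and -4.42. Control replicate 2 was the highest of all 8 arrays, and the groups overlapped, though control replicates 1 and 3 lay below every Rfx6 KO array. The difference of 1.42 (SE 1.04, limma adjusted p = 0.482) had a fold interval from 0.522 to 13.8, which leaves its direction undetermined.

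Muc2, the intestinal gel-forming mucin and a neighbour of Muc5ac, served as comparison. Its levels were 1.83, 1.00, 2.70 and 2.56 in controls and 3.08, 3.38, 3.11 and 2.18 in Rfx6 KO, with 3 Rfx6 KO arrays above all controls. The difference of 0.92 (SE 0.39) did not pass (limma adjusted p = 0.23). The change of Muc5b was larger by 6.91 (exact permutation p = 0.0286, adjusted 0.0381), a p again fixed in advance by the distance between the Muc5b groups.

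Mucl3, a mucin-like membrane protein, was near background in controls and bright in Rfx6 KO. Its processed signal was 14.3, 8.06, 5.11 and 57.7 on control arrays and 24777, 11508, 9271 and 18678 on Rfx6 KO arrays. The levels were -5.53, -6.44, -6.98 and -3.59 against 5.06, 4.06, 3.70 and 4.88, with no overlap. Control replicate 4 was the one control array on which the probe was well above background, and it was also the highest control. Means of -5.63 ± 1.49 and 4.43 ± 0.65 (SD, n = 4 each) differed by 10.06 (SE 0.67, limma adjusted p = 8.88e-05), with a 95% interval from 8.54 to 11.58. Because 3 of 4 control values are at background, the size rests in part on background signal: it was 7.48 with normexp correction, 7.61 in the authors' normalized values and 10.74 without control replicate 4. Row 1 gave 9.74 and row 2 gave 10.73.

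Muc1, which carries a cytoplasmic tail with signalling functions, lay at -5.32, -5.85, -4.44 and -4.75 in controls and at -0.45, -1.61, -1.49 and -0.73 in Rfx6 KO. All Rfx6 KO arrays were above all controls, and of the controls only replicate 3 was well above background. The processed signal ran from 12.1 to 29.6 in controls and from 226 to 544 in Rfx6 KO. Means of -5.09 ± 0.62 and -1.07 ± 0.57 (SD, n = 4 each) differed by 4.02 (SE 0.35, limma adjusted p = 0.000416), with a 95% interval from 3.22 to 4.82. With normexp correction the difference was 2.15 and in the authors' normalized values 2.32, both still called. Within row 1 it was 4.04 and within row 2 it was 4.57.

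Muc4, a ligand-like partner of the receptor Erbb2, was already well above background in control intestine. Its levels were 0.31, -0.27, 0.36 and 0.28 in controls and 2.04, 0.96, 0.89 and 1.22 in Rfx6 KO. All Rfx6 KO arrays lay above all controls, with replicate 1 standing above the other Rfx6 KO arrays. The means, 0.17 ± 0.29 and 1.28 ± 0.53 (SD, n = 4 each), differed by 1.11 (SE 0.26), or 2.15-fold with a 95% interval from 1.44 to 3.22, just past the threshold (limma adjusted p = 0.0445). The call was lost when any array other than Rfx6 KO replicate 3 was left out, with limma adjusted p from 0.0524 without Rfx6 KO replicate 1 to 0.102 without control replicate 1, and also without the filter on dim probes (0.131). The difference was 0.85 without Rfx6 KO replicate 1, 0.71 within row 1 and 1.92 within row 2, the row that holds that array.

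The upstream Muc4 probe was dimmer, with processed signals of 61.7, 37.2, 18.0 and 22.9 in controls and 67.5, 39.6, 39.9 and 42.5 in Rfx6 KO. It was well above background on 1 control array and on all Rfx6 KO arrays, and its groups overlapped. Its difference was 0.52 (SE 0.35, limma adjusted p = 0.464 with every probe tested). Averaging both probes gave Muc4 a difference of 0.81 that did not pass (limma adjusted p = 0.103). The changes of the Muc4 probes differed by 0.58, which was within their spread (exact permutation p = 0.4).

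Muc20, which can bind the receptor Met, is the neighbour of Muc4: its probes, on the minus strand, alternate along the chromosome with the Muc4 probes on the plus strand, and the tested one lies at chr16:32786143-32786202. The levels of Muc20 were -1.92, -2.04, -2.02 and -2.10 in controls and -1.45, -1.52, -1.88 and -1.54 in Rfx6 KO. The groups did not overlap, though Rfx6 KO replicate 3 stood close to the controls. The difference was 0.42 (SE 0.11; fold interval from 1.13 to 1.58) and missed the threshold (limma adjusted p = 0.0588), while without Rfx6 KO replicate 3 it was 0.52 and passed (limma adjusted p = 0.0163), as it did with array weights (0.0417). The change of Muc4 exceeded that of Muc20 by 0.68 (exact permutation p = 0.0286, adjusted 0.0381). That adjustment ran over 4 pairs and included the Muc5b pairs, whose p was fixed in advance. The adjusted value therefore adds nothing here. A second Muc20 probe, chr16:32777512-32777571, was well above background on 0 of 8 arrays.

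Muc13, the abundant membrane mucin of the intestinal surface, was the one member with a negative difference. Its levels were 7.93, 7.61, 7.86 and 7.87 in controls and 7.39, 7.35, 7.57 and 7.49 in Rfx6 KO. Each Rfx6 KO array was lower than each control array, but by little: the means were 7.82 ± 0.14 and 7.45 ± 0.10 (SD, n = 4 each). The difference of -0.37 (SE 0.09) did not pass (limma adjusted p = 0.0647), and its fold interval ran from 0.668 to 0.899. Leaving out control replicate 2, the lowest control, gave -0.44 and a call (limma adjusted p = 0.0246), and array weights also gave a call (0.01).

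Across the 8 genes, all Rfx6 KO arrays lay above all control arrays for 5 and below them for 1, against 5.4% and 9.24% of all genes tested. Muc1 and Mucl3 are among those above, and they entered the test through the Rfx6 KO arrays alone, which favours such a separation. Of the 5 genes above background on all control arrays, 3 had all Rfx6 KO arrays above all controls. Rfx6 KO replicate 1 was the highest array of its group for 6 of the 8 mucins, compared with 15.8% of all genes, and replicate 3 was the lowest for 5 of 8, compared with 15%. These are descriptions of 4 arrays whose scaling the genes share.

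**Figure D2:**
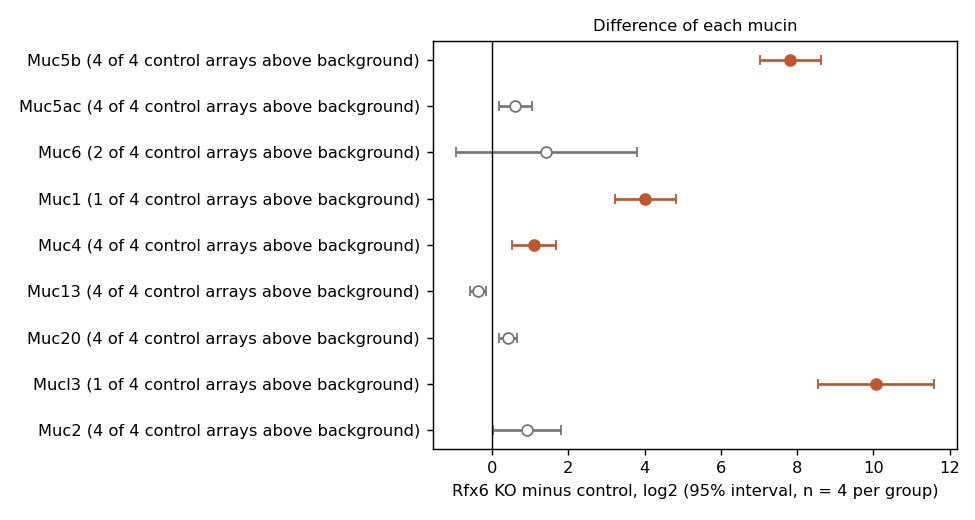
Difference of each mucin and of Muc2 (horizontal axis, Rfx6 KO minus control in log2 units, with 95% intervals, n = 4 per group); filled orange points passed limma's adjusted threshold. Muc5b, Mucl3, Muc1 and Muc4 passed as higher, and the interval of Muc6 spans 0.

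The upstream sequences of the membrane mucins that rose are shown so that those of Mucl3, Muc1 and Muc4 can be compared. They are the 250 bases before the RefSeq start, on GRCm38.p6, printed 5′ to 3′ on the strand of the gene, with any match to a searched motif in capitals. The table used holds no entry for Muc5ac or Muc5b.
Mucl3 (chr17:35643696-35643945, minus strand): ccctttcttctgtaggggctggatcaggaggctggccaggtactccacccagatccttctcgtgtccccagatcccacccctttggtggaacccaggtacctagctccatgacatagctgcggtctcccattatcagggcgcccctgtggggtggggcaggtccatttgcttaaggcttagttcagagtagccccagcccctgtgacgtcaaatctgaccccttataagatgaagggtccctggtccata
Muc1 (chr3:89228806-89229055, plus strand): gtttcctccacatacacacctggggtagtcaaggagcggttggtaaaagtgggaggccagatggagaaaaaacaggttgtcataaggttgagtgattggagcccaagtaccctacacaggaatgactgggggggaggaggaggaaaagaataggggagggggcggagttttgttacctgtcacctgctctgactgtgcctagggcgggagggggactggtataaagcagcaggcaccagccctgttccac
Muc4 (chr16:32735636-32735885, plus strand): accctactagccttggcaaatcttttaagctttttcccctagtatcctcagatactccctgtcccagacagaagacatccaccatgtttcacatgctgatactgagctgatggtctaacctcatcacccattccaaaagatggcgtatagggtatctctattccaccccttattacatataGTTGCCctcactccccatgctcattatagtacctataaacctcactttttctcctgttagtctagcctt
The motifs searched on both strands were GTTGCC, part of the site of RFX factors, TGTTTAC for FOX factors, AGATAA for GATA factors and TTTATTG for CDX factors. Muc4 held 1 GTTGCC, starting 69 bases before the start, and 10.4% of the 32851 promoters of this length in the table hold one. Mucl3 and Muc1 held none of the 4 motifs in this window. Among the mucins that did not pass, Muc6 held 1 AGATAA (9.99% of promoters hold one), Muc20 held 1 TGTTTAC (3.17%), and both Muc13 starts held none. TTTATTG was found in none of them and in 4.2% of promoters.

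Other mucins showed no call, where 4.92% of all genes tested were called. Of 13 named, 9 were on the array and 5 could be tested, of which 0 passed (limma; 2 at an unadjusted p under 0.05, both higher), with a median difference of 0.25 against -0.05 over all genes. The probe of Muc21, a membrane mucin listed as Gm9573, differed by 1.2 (limma adjusted p = 0.196), and that of Muc16 by 0.25 (limma adjusted p = 0.429).

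Several of the genes that gastric mucous cells express together with mucins were higher. Of 13 tested, 10 passed as higher and 0 as lower, but 8 of the 13 entered the test through the Rfx6 KO arrays alone, so that count is no measure of the list. Of the 5 above background on all control arrays, 3 passed as higher: Tff2, Gkn3 and Anxa10. Among all genes tested, 2.33% passed as higher. Gkn2, a gastrokine of surface mucous cells, was at least 2320-fold higher, and Vsig1, a junction protein of gastric epithelium, at least 76.2-fold higher. Both were at background on every control array, and only bounds are given. These were set against the lowest signal well above background on each array, and they hold for that choice only. Bpifb1, a secreted mucosal defence protein, differed by 10.06 (limma adjusted p = 2.46e-05) and Anxa10, an annexin of gastric epithelium, by 7.09 (limma adjusted p = 4.8e-05). A4gnt, which adds the terminal sugar of gastric gland mucin, differed by -0.04 (limma adjusted p = 0.949). Requiring signal on all 8 arrays kept 3 of these calls and added Capn8.

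Enzymes that build the O-linked sugar chains split. Of 25 tested, 6 passed as higher and 0 as lower, against 2.33% higher and 2.59% lower among all genes tested. The median difference was 0.02, against -0.05 over all genes. Fut2, which fucosylates the chain ends, rose by 0.86 (SE 0.07; limma adjusted p = 0.000327). Gcnt3, a mucin-type branching enzyme, rose by 1.48 (SE 0.16; limma adjusted p = 0.0013), and its relative Gcnt1 by 0.72 (limma adjusted p = 0.00336). Galnt12, which starts chains, rose by 0.51 (limma adjusted p = 0.0268). The count was 3 without control replicate 1 or without Rfx6 KO replicate 1, 2 or 4, and 3 with the slide row as a block; Fut2, Gcnt3 and Gcnt1 were the calls that stayed.

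Among genes for mucin folding, packing and secretion, 6 of 20 tested passed as higher and 1 as lower. Among all genes tested, 2.33% passed as higher and 2.59% as lower. The median difference was 0.30, against -0.05 over all genes. Sytl2 and Rab27a, which act in docking of secretory granules, rose by 1.17 (limma adjusted p = 0.00704) and 1.13 (limma adjusted p = 0.011). The chloride channel gene Ano1 rose by 0.64 (limma adjusted p = 0.00752), and Ern2, a sensor of endoplasmic reticulum stress in mucous cells, by 0.97 (limma adjusted p = 0.00969). Zg16, a lectin of intestinal goblet cells, fell by 1.38 (limma adjusted p = 0.00681).

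Binding partners and sheddases of the membrane mucins showed 0 calls among 13 tested (limma, with 2 at an unadjusted p under 0.05). Of all genes tested 4.92% were called. The median difference was 0.09, against -0.05 over all genes. Lgals3, a galectin that binds mucin sugars, came nearest with a difference of 0.52 (limma adjusted p = 0.0586), and it passed when control replicate 2 was left out.

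Of 14 transcription factors of mucous and gut epithelial cells that could be tested, 5 passed as higher and 1 as lower. Among all genes tested, 2.33% passed as higher and 2.59% as lower. The median difference was -0.04, against -0.05 over all genes. Foxa1 rose by 1.23 (limma adjusted p = 0.00161), Foxa2 by 1.00 (limma adjusted p = 0.00457), Foxa3 by 0.66 (limma adjusted p = 0.00696) and Klf4 by 0.68 (limma adjusted p = 0.0238). Gata4, a regulator of proximal intestine, fell by 0.51 (limma adjusted p = 0.0396), and Cdx2, which specifies intestine, differed by -0.24 (limma adjusted p = 0.212). The tested Sox21 probe differed by -0.19, while a dimmer one rose by 2.80 (limma adjusted p = 0.000738 with every probe tested). Sox2 did not enter the test, with levels of -3.77, -3.84, -5.38 and -4.16 in Rfx6 KO against at most -6.46 in controls. It was called without the filter and without Rfx6 KO replicate 3. The 3 Foxa genes were the calls left without control replicate 3 or 4, without Rfx6 KO replicate 1 or 4, or with the slide row as a block, where Klf4, Spdef and Gata4 dropped out.

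Of 20 tested genes beside the mucins on their chromosomes 1 passed, or 5.0% against 4.92% of all genes, with a median difference of 0.09. It was Tnk2, a kinase gene near Muc4 and Muc20, which rose by 0.60 (limma adjusted p = 0.0384); the call was lost when any array other than control replicate 4 was left out.

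**Figure D3:**
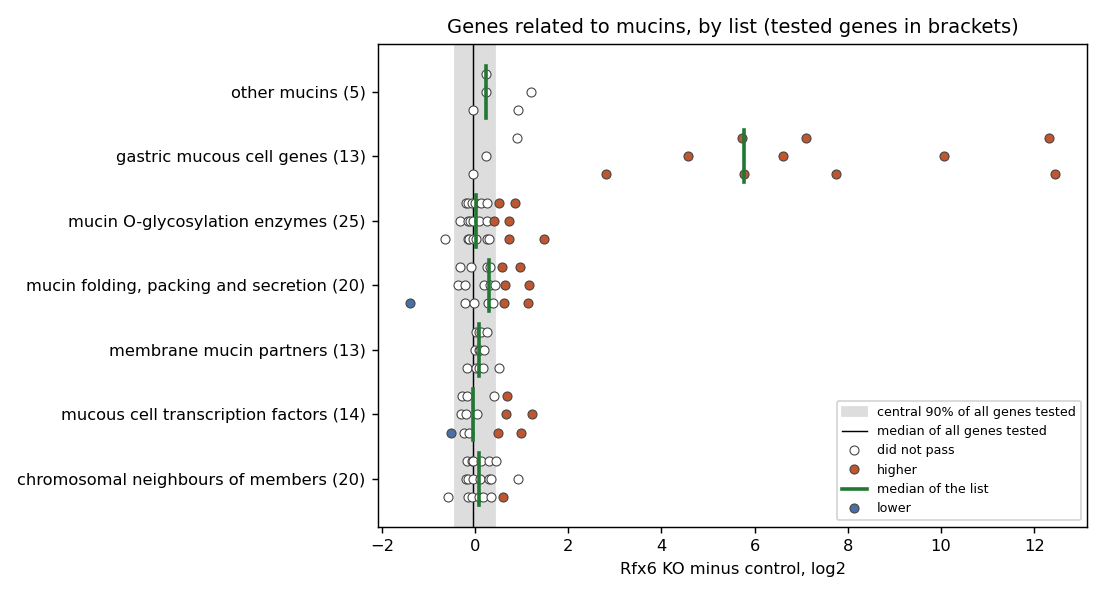
Differences of the tested genes of each list (horizontal axis, Rfx6 KO minus control, log2), with calls in colour, the list median in green and the spread of all tested genes as a grey band. The gastric mucous cell genes have a median of 5.77, of which 8 of 13 entered through Rfx6 KO alone, and the other list medians lie between -0.04 and 0.30; Gkn2 and Vsig1 are drawn at fitted values, although only a bound can be given for them.

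Markers of other cell types were measured beside the mucins. The counts of calls in all marker lists stand against 2.33% higher and 2.59% lower among all genes tested. The gastric epithelium list, 8 of whose 12 genes also stand in the gastric mucous list, had 10 of 11 tested genes higher; 8 of the 11 entered the test through the Rfx6 KO arrays alone, and of the 3 above background on all control arrays 2 were higher. Its summed signal, in units of the 75th percentile of the array, ran from 0.563 to 5.54 in controls and from 393 to 731 in Rfx6 KO, and 5 of its 12 genes were above background on no control array. Its mean level was highest on Rfx6 KO replicate 1 (2.35), then replicates 4 (1.96), 2 (1.68) and 3 (1.47), and Muc5b, Mucl3 and Muc4 followed that order of arrays, while Muc1 was higher on replicate 3 than on replicate 2. Among controls it was highest on replicate 4 (-3.78), as were Mucl3 and Muc5b, whereas Muc1 and Muc4 were highest on replicate 3. The tested gene that did not pass was Pgc, which differed by 0.24 at its brightest probe. A dimmer Pgc probe rose by 3.44 (limma adjusted p = 0.00305 with every probe tested). The part of gastric-type epithelium in the mucin differences was not tested.

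Stomach mesenchyme markers had a mean level that overlapped between the groups. Of 4 genes, Barx1 and Nkx2-5 were above background on no array and Six2 on 1 Rfx6 KO array. Nkx3-2 was well above background on 4 control and 4 Rfx6 KO arrays and differed by 0.00 (limma adjusted p = 0.997). Their summed signal was 0.171 to 0.203 in controls and 0.139 to 0.224 in Rfx6 KO.

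Squamous markers of forestomach and oesophagus, a tissue where Muc1, Muc4 and Muc20 are also made, had a higher mean level in Rfx6 KO. It was -0.14, 0.53, -1.24 and -1.75 on Rfx6 KO replicates 1 to 4, against -2.42 to -2.18 in controls. Their summed signal was 10.7 to 13.4 in controls and 21.2, 27.9, 12.9 and 12.7 on Rfx6 KO replicates 1 to 4, with 2 of 7 tested genes higher, Krt13 and Krt15. Krt13 rose by 0.81 at its brightest probe and by 6.98 at a dimmer one (limma adjusted p = 0.00555 with every probe tested). Single genes were above all controls on every Rfx6 KO array: Krt5 stood at 1.15, 2.12, -0.76 and -1.92 against at most -2.62, and Krt15 at 2.35, 3.12, 0.35 and -0.38 against at most -1.88. Other genes of the list went the other way. By mean level the Trp63 probe was the brightest of the tested probes in both groups, so it carries much of the summed signal. Probe brightness does not rank the genes. Trp63 was lower on every Rfx6 KO array than on every control array (difference -0.14, limma adjusted p = 0.297). Krt14 differed by -0.29 (limma adjusted p = 0.815). Dsg3 did not enter the test, and Krt4 was above background on 0 control and 4 Rfx6 KO arrays. The part of squamous tissue in the mucin differences was not tested.

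Airway markers, relevant to Muc5b, were above background on no array for 4 of 7 genes, and their summed signal in Rfx6 KO was 0.119 to 0.166. In controls it was 0.138 to 26.1, the top value being that of replicate 1, where the surfactant gene Sftpc stood at 4.70. Goblet cell markers summed to 378 to 511 in controls and 451 to 517 in Rfx6 KO, with 1 of 8 tested genes higher (Spdef) and 1 lower (Zg16). Intestinal epithelial markers summed to 1577 to 1776 in controls and 1091 to 1281 in Rfx6 KO, with 3 of 10 lower. Of the remaining lists, liver had 2 of 6 tested genes higher, and exocrine pancreas (6 tested), mesothelium (5), immune cells (6) and erythroid cells (4) had no gene past the limma threshold; at an unadjusted p under 0.05 they had 1, 3, 2 and 2. The part of these cell types in the mucin differences was not tested.

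**Figure D4:**
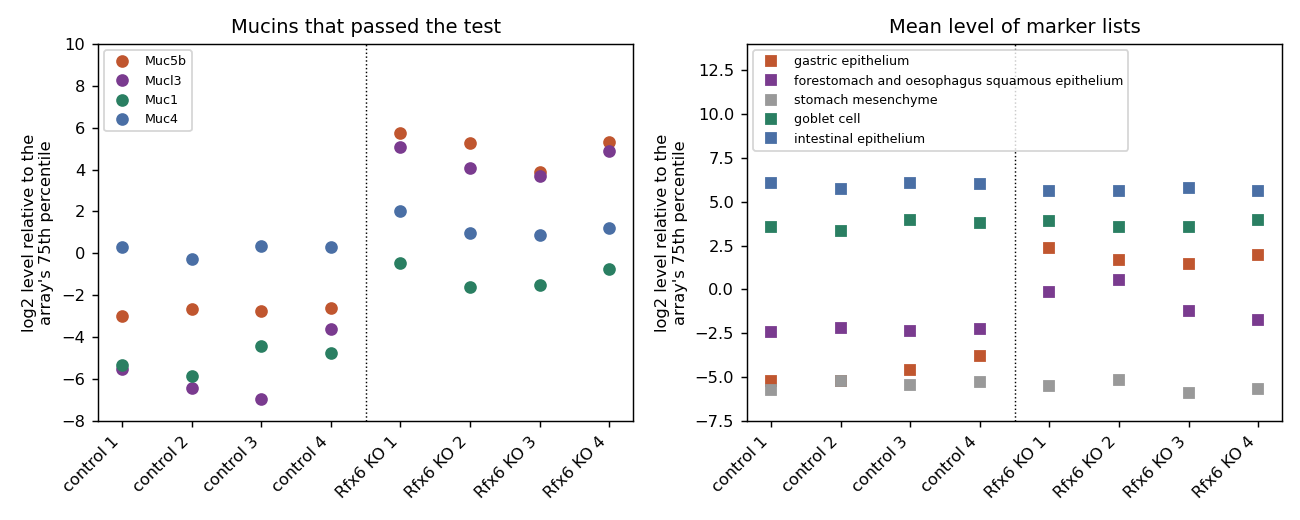
Levels of the mucins that passed (left) and mean levels of marker lists (right) on each array (vertical axes, log2 relative to the 75th percentile of the array). Gastric epithelial markers rise with Muc5b, Mucl3 and Muc1 between the groups, while the stomach mesenchyme mean is at -5.19 or lower on all 8 arrays.

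Genes with the pattern most like each called mucin were found by the root mean square distance between levels centred over the 8 arrays, a measure that follows the group difference. For Muc5b they were Mal (0.336 log2 units), U46068 (0.49) and Vsig1 (0.578), and for Mucl3 they were Bpifb1 (0.524), Vsig1 (1.28) and Gkn2 (1.34). The U46068 probe overlaps the Bpifb1 probe in sequence, so these entries share a target. Eya2 (0.279), Gsdma3 (0.321) and Vsig2 (0.406) lay nearest to Muc1. Suox (0.166), Capn5 (0.197) and Chad (0.199) lay nearest to Muc4.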

How the data were processed

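The deposited scanner files give an intensity per spot. Per the file headers, the authors read 1-colour scans with Feature Extraction 10.10.1.1, whose processed signal is a background-subtracted intensity with no scaling between arrays, on an mm9 grid. Per the labels, 100 ng of RNA were labelled. The authors' normalized value table matched quantile-normalized spot medians and served as an alternative.

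Control and outlier spots (153 to 355 per array) were left out, none of the gene spots was saturated, and spots of a probe were averaged. The 75th percentile lay between 636 and 741 signal units, and 57.4% to 67.1% of probes were well above background. Probes well above background on all arrays of either group were kept (31668), and the brightest stood for its gene. Symbols were updated through a RefSeq table (GRCm38.p6, names only).

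All 23282 genes were fitted with lmFit and eBayes (limma 3.58.1, R 4.3.3), two-sided, without a block, and adjusted by Benjamini-Hochberg. Single values were compared by exact permutation over the 70 splits. On data simulated for this comparison (23172 genes), 77% of 2-fold and 96% of 4-fold changes were recovered, and 5.98% of calls were false.

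All arrays lay on 1 slide with 1 scan. Row 1 held control replicate 1 and Rfx6 KO replicates 2, 3 and 4, and row 2 the others, so row and group were partly confounded. The members and lists were chosen with earlier results of these data known. All members were named, up to 4 called genes per list and direction with the smallest adjusted p, markers where their detection bore on a member, and the 3 nearest patterns of each called member. Muc16, Muc21, A4gnt, Lgals3, Cdx2, Sox2, Sox21, Pgc, Trp63 and Krt14 were named after their values were seen. The alternatives were normexp correction (offset 50), quantile normalization, median centring, no filter or a filter on all 8 arrays, probe averaging, every probe tested, the authors' table, row or replicate blocks, array weights and leaving out each array.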

Additional observations from a re-analysis of the deposited data

Results flagged for a closer look

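The Muc4 level on control replicate 2 was -0.27, while the other controls lay between 0.28 and 0.36. The gap made up 0.878 of the range of the group, above Dixon's critical value for 4 samples. Without that array the difference of Muc4 was 0.96 and did not pass (limma adjusted p = 0.0841). Of the 112 groups of 4 values formed by the mucin probes and most of the other genes named here, 9 held 1 array so far from the rest, or 8.04%. Chance gives about 1 in 20, and genes on 1 array are not independent.

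Rfx6 was low on control replicate 4, at -3.74 against -2.98 to -2.91. The same array was high for Gkn2, at -5.13 against -6.34 to -6.28, all at background, and for Bpifb1, at -2.14 against -4.9 to -4.52, and low for Sytl2, at -1.1 against -0.827 to -0.785. Control replicate 2 was low for Lgals3, at 4.17 against 4.63 to 4.72, and for Chad, at -2.59 against -2.06 to -2.02. Sftpc was high on control replicate 1, at 4.7 against -6.44 to -6.08, and Gata4 was low on Rfx6 KO replicate 2, at 0.96 against 1.33 to 1.37.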

How the results depend on the processing

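Every member kept its sign under every alternative that gave it a value. Muc5b stayed called in 19 of 19, Muc1 and Mucl3 in 18 of 18, and Muc4 in 9 of 19; Muc1, Mucl3 and Muc6 had no value with the filter on all 8 arrays, which they do not pass. That filter gave 2 mucins higher and 4 gastric mucous calls, of which 3 were among the reported 10. Leaving out 1 array gave 3 to 5 mucins higher and 0 to 1 lower, 3 to 4 O-glycosylation enzymes, 3 to 6 transcription factors, 0 to 1 partners and 0 to 1 chromosomal neighbours. Without a filter on dim probes there were 3 O-glycosylation enzymes and 0 neighbours, and with the slide row as a block 3 O-glycosylation enzymes and 3 transcription factors. Normexp correction, quantile normalization, the authors' table and array weights each gave 1 partner, Lgals3. Array weights called 6 mucins higher, with Muc5ac (limma adjusted p = 0.0316) and Muc20 (0.0417) added, and 1 lower, Muc13 (0.01). The cause was not tested. The labels do not say that replicate numbers pair the samples. Deviations of same-numbered samples correlated at -0.07, -0.17, 0.07 and -0.41, which cannot settle whether they are paired. With the replicate block 268 genes were higher and 148 lower, Muc4 was not called (1.11, limma adjusted p = 0.0652), and 0 neighbours were called. Over all genes 47.4% of calls were higher, against 68.3% with median centring. Muc1, Mucl3 and Muc6 lie near background in controls, which limits the precision of their sizes.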
